A study of Mus musculus with 6 samples.

Results

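The genes followed here encode the translation initiation factors, read from RNA-seq of the gastrocnemius (GAS), a calf muscle made mostly of fast fibers. They were chosen by symbol: every gene named *Eif1* to *Eif6*, without the *Eif2ak* kinases, was kept when its counts over the 6 libraries summed to 60 or more. Of the 24532 genes in the table, 51 had such a symbol and 50 were kept. *Eif4e1b*, with 5 counts, fell below the minimum, and *Eif5a2*, with 460, was the lowest gene above it. All 6 animals were male C57BL/6 mice of about 20 weeks, and all carried *Sirt6* flox/flox. The 3 animals labelled WT are described by that genotype alone, and the 3 labelled *Sirt6* KO also carried *Myl1-Cre*, whose promoter is active mainly in fast fibers. Cells in which it is not active, such as endothelial cells and fibroblasts, keep the floxed gene whole. Each animal gave 1 library. The question was how muscle transcripts differ when the deacetylase gene *Sirt6* is deleted.

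Translation of most mRNAs begins when the eIF4F complex, made of the cap-binding protein eIF4E, the scaffold eIF4G and the helicase eIF4A, brings the mRNA to a small ribosomal subunit. That subunit already carries eIF3, eIF1, eIF1A and the initiator tRNA, which is delivered by eIF2 bound to GTP. Assembly of eIF4F is held back by the eIF4E-binding proteins, which mTORC1 phosphorylates. Delivery of the tRNA is held back when kinases phosphorylate the alpha subunit of eIF2, which then blocks its exchange factor eIF2B. In skeletal muscle these controls adjust protein synthesis to feeding, load and exercise. Transcript levels, the quantity measured here, say nothing of phosphorylation.

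The library totals lay between 44845763 and 63016899 counts, and WT libraries 1 and 2 were the shallowest. The counts were tested with edgeR's quasi-likelihood test, and p-values were adjusted by the Benjamini-Hochberg method over the 13801 genes that passed a filter on low counts; a gene was called at an adjusted p under 0.05. Levels compared between libraries are CPM, counts relative to the library size after TMM normalization, and 1 count was worth 0.0165 to 0.0212 CPM. Levels compared between genes are the FPKM values as deposited, which are scaled to gene length. *Sirt6* went against its labels: it stood at 2.77, 2.23 and 2.88 CPM in WT libraries 1 to 3 and 7.81, 7.44 and 6.68 CPM in those labelled *Sirt6* KO, higher in the latter by 1.48 ± 0.17 on the log2 scale (adjusted p = 0.0113). The counts cover the whole gene, so the deleted exons could not be read separately, and every direction below compares libraries by these labels. Fast muscle markers summed to 125924, 133794 and 212934 CPM in WT libraries 1, 2 and 3 and to between 195634 and 223447 CPM in the others, and none of 7 was called. Slow muscle markers summed to 7302, 8166 and 1389 CPM in WT libraries 1, 2 and 3 and to 1672, 4793 and 2071 CPM in those labelled *Sirt6* KO. Erythroid markers summed to 297, 291 and 46.6 CPM in the WT libraries and to 109.8, 181 and 80.2 CPM in the others. WT library 3 thus stood apart from the other WT libraries in these 3 marker sums, with none of the 8 slow or 5 erythroid genes called between the groups. It was also the lowest of the 6 libraries in the endothelial sum (132 CPM, against 218 and 247 in WT libraries 1 and 2), the fibroblast sum (541 against 985 and 765) and the adipocyte sum (121 against 156 and 223). Of the lists for adipocytes, macrophages, fibroblasts, endothelial and Schwann cells, each of 5 genes, only the Schwann cell list held a called gene, 1 lower. No marker of any list was at 0 counts.

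All 50 initiation factor genes passed the filter on low counts, and together they took 0.754, 0.736 and 0.766% of the counts in the WT libraries and 0.699, 0.656 and 0.665% in those labelled *Sirt6* KO. In bulk muscle, fewer cells of a type and less RNA per cell cannot be told apart. Per length, *Eif1*, which helps the scanning ribosome to discriminate start codons, was the most abundant at 437 FPKM over the 6 libraries. It was followed by *Eif5a* at 186, *Eif4a2* at 181, *Eif4g1* at 123 and *Eif4g2* at 101 FPKM. *Eif5a2* closed the order at 0.257 FPKM, after *Eif4ebp3* at 4.57 and *Eif1a* at 4.82 FPKM. Between most neighbours in this order the 6 values overlapped, so that their ranks cannot be told apart by the spread. They did not overlap between *Eif1* and *Eif5a*, between *Eif4a2* and *Eif4g1*, or between *Eif4ebp3* and *Eif5a2*. The order within a group also differed in places: *Eif4g2* had rank 5 among the WT means and rank 10 among the means labelled *Sirt6* KO, *Eif3f* moved from rank 12 to 7, and *Eif3j2* from rank 21 to 36. *Eif2d*, *Eif2s2*, *Eif3m* and *Eif4enif1* each overlap a gene on the other strand by more than 10000 bases, and strand use in the counting is not given in the sources used here. None of the 6 genes called below overlaps another gene among the 24532, and annotated genes outside these were not looked at.

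**Figure D1:**
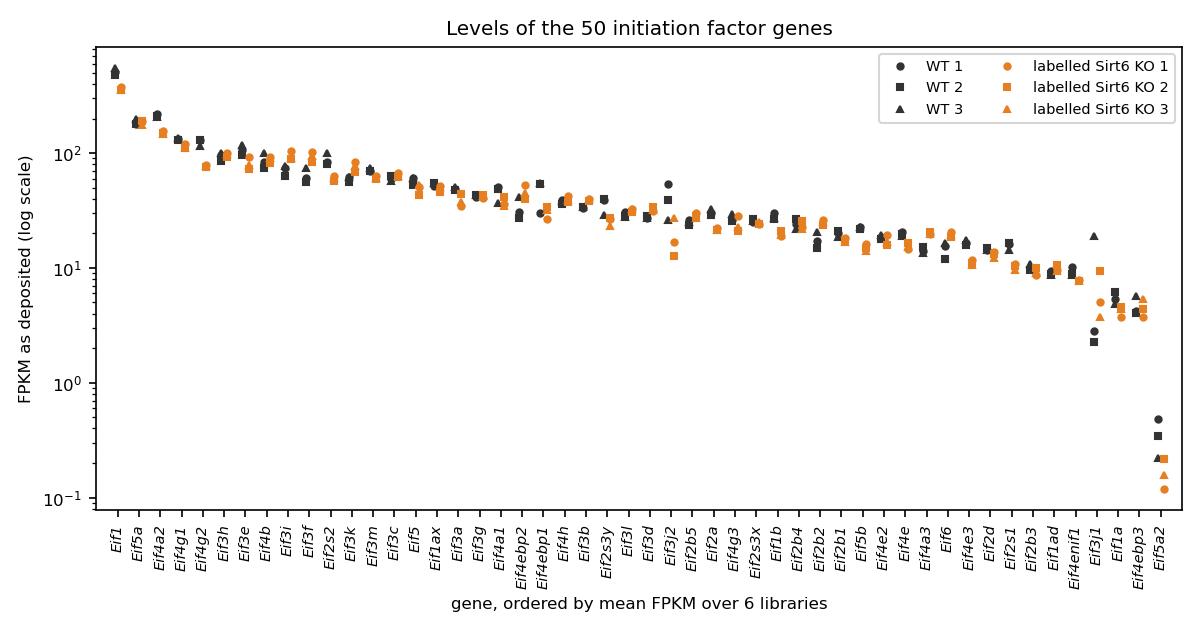
FPKM as deposited (log scale) of the 50 initiation factor genes, ordered by their mean over 6 libraries; black marks are the WT libraries and orange marks those labelled *Sirt6* KO, with 1 mark shape per replicate number. *Eif1* stands alone at the top with a mean of 437 FPKM and *Eif5a2* alone at the bottom with 0.257 FPKM.

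Of the 50 genes, 6 were called between the groups, a share of 12.0% against 16.2% of all genes tested. *Eif3f*, *Eif3i*, *Eif3k* and *Eif4a3* rose (4 genes; 7.85% of all genes tested were called higher), and *Eif4g2* and *Eif2s1* fell (2 genes; 8.39% of all were called lower). None of the 6 changed by more than 2-fold. At an unadjusted p under 0.05 there were 23 of the 50 (46.0%), and 35.3% of all genes tested. DESeq2's Wald test called 18 of the 50 (36.0%), all 6 among them, and 25.6% of all genes. In CPM the groups did not overlap for 24 of the 50 genes (48.0%), 12 higher and 12 lower in those labelled *Sirt6* KO. The share over all genes was 40.0%, with 20.3% higher and 19.6% lower. This balance depended on the scaling. In FPKM *Eif4g1*, *Eif3a*, *Eif3e*, *Eif3m* and *Eif2s3x*, among others, were also lower without overlap, and *Eif3c* overlapped. Summed over the 50 genes, FPKM was 2780, 2675 and 2892 in WT and 2529, 2371 and 2405 in the other group. Below, overlap of gene levels is in CPM unless FPKM is named. A log2 fold change above 0 was seen in 25 of the 50 genes and in 48.4% of all. The median log2 fold change was -0.014 over the 50 genes and -0.021 over all genes tested, and the median of its size was 0.30 against 0.35. The share of calls lay below that of the table in the edgeR test but above it with DESeq2, at an unadjusted p and by overlap, so its order relative to the table depended on the criterion.

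**Figure D2:**
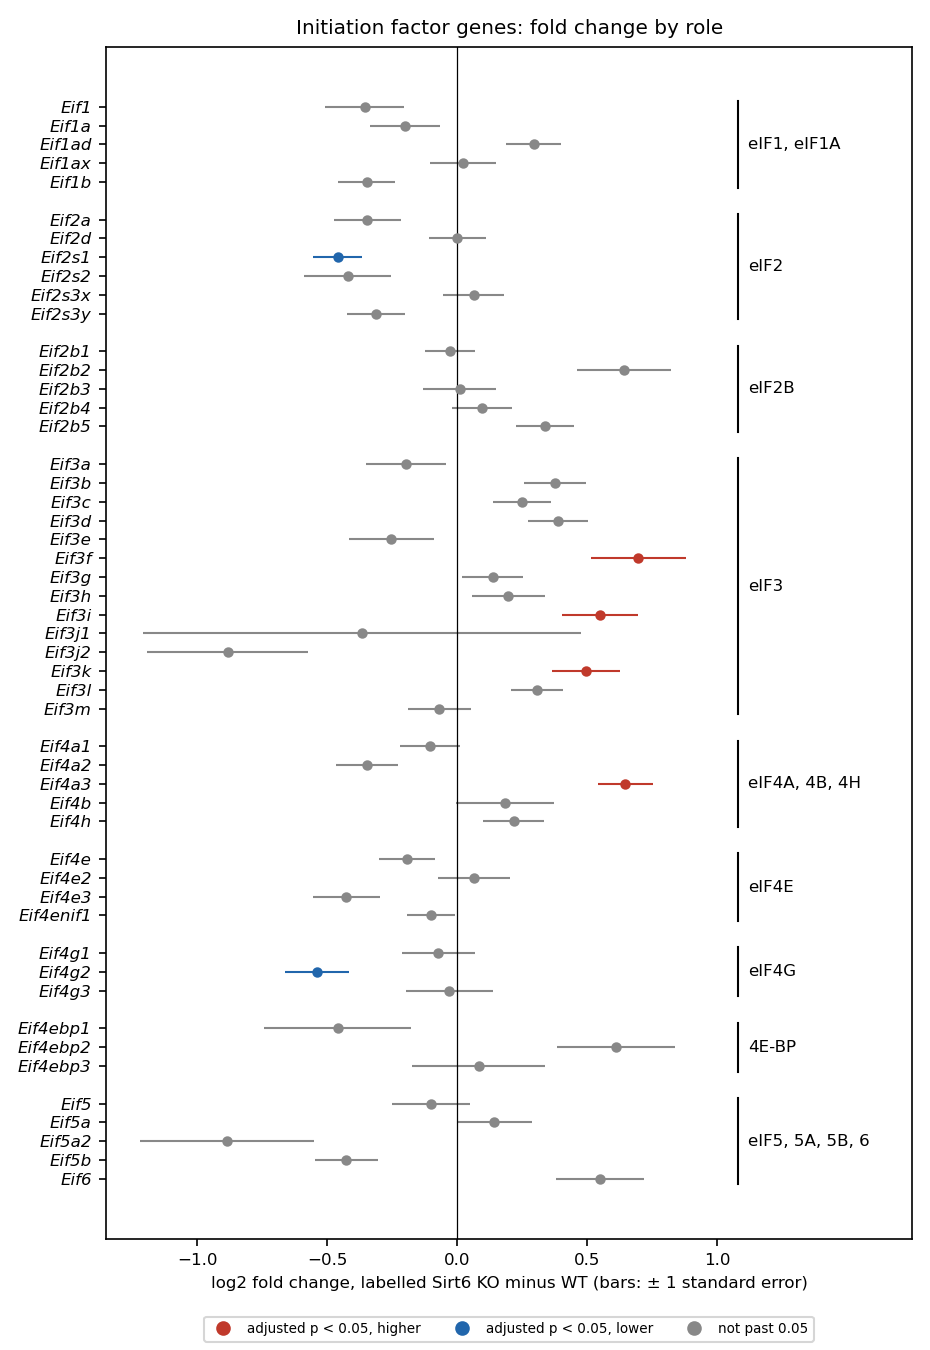
Log2 fold change of each initiation factor gene in the libraries labelled *Sirt6* KO relative to WT, grouped by role, with bars of 1 standard error; red and blue points passed an adjusted p of 0.05 and grey points did not. The 4 red points are *Eif3f*, *Eif3i*, *Eif3k* and *Eif4a3*, and the 2 blue points are *Eif4g2* and *Eif2s1*.

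The largest group was eIF3, the scaffold that holds the mRNA and the other factors on the small ribosomal subunit. Of its 14 genes 3 rose, none fell, and 11 did not pass, where 7.85% of all genes tested were called higher and 16.2% in either direction. *Eif3f* (NCBI gene 66085, chr7:108934415-108941942, plus strand), a subunit known in muscle as a partner of mTORC1 and a target of the atrophy ubiquitin ligase MAFbx, stood at 90.9, 90.0 and 135 CPM in WT libraries 1 to 3 and 182, 152 and 177 CPM in those labelled *Sirt6* KO. Its lowest value in the second group lay above its highest in the first, the level being 105 ± 25.5 against 171 ± 16.1 CPM (SD, n = 3), and the log2 fold change was 0.70 ± 0.18 (SE; adjusted p = 0.0424). *Eif3i* (NCBI gene 54709, chr4:129591974-129600648, minus strand), a WD-repeat subunit, stood at 81.3, 75.2 and 104 CPM in WT libraries 1 to 3 and 137, 120.0 and 125 CPM in those labelled *Sirt6* KO. The groups did not overlap, and the log2 fold change was 0.55 ± 0.15 (adjusted p = 0.0437). *Eif3k* (NCBI gene 73830, chr7:28971372-28981890, minus strand), one of the small subunits at the edge of the complex, stood at 51.9, 50.8 and 63.2 CPM in WT libraries 1 to 3 and 84.2, 69.3 and 80.7 CPM in those labelled *Sirt6* KO, again without overlap and with a log2 fold change of 0.50 ± 0.13 (adjusted p = 0.0431). In all 3 genes WT library 3 was the highest WT library in CPM. In FPKM this held for *Eif3f* and *Eif3i*, but *Eif3k* was at 62.2 in WT library 1 and 62.0 in WT library 3.

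Upstream sequence was at hand for *Eif3f* and *Eif3k*, and it is shown because both genes were called and both hold an E-box within the 250 bases before the RefSeq start (GRCm38.p6). The sequences are written along the strand of the gene, and capitals mark the E-box CACGTG and the CRE core TGACG, or its reverse complement CGTCA. The *Eif3f* window is chr7:108934165-108934414 on the plus strand and that of *Eif3k* chr7:28981889-28982138 on the minus strand. The *Eif3k* window reaches just into the gene span given above, so the start used for it is not the outer end of that span.
Eif3f: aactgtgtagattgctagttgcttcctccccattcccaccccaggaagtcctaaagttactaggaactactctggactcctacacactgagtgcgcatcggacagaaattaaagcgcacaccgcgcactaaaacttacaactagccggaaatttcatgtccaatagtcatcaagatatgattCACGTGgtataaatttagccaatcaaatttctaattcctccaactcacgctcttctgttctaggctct
Eif3k: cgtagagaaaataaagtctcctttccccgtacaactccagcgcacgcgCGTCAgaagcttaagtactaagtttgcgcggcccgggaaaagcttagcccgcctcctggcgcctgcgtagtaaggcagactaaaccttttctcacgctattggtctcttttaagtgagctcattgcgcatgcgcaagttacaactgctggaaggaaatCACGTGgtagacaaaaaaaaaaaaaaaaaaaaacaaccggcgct
The E-box began at position -68 from the start in *Eif3f* and at -44 in *Eif3k*. *Eif3k* also held a CRE core, at position -202 from the start.

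*Eif3b*, *Eif3c*, *Eif3d* and *Eif3l* stood higher without overlap in the libraries labelled *Sirt6* KO but did not pass the test. *Eif3d*, the subunit that can itself bind the cap of some mRNAs, was at 57.2 ± 6.29 against 74.8 ± 3.70 CPM with a log2 fold change of 0.39 ± 0.11 (adjusted p = 0.0588). *Eif3b*, part of the core that holds *Eif3i*'s product, had 0.38 ± 0.12 (adjusted p = 0.0689), *Eif3l* 0.31 ± 0.10 (adjusted p = 0.0755) and *Eif3c* 0.25 ± 0.11 (adjusted p = 0.157). With the 3 called genes these make 7 of 14 without overlap, all higher (20.3% of all genes were), and the median log2 fold change of the complex was 0.22. *Eif3h*, the eIF3 gene with the highest FPKM, stood at 117, 111 and 149.9 CPM in WT libraries 1 to 3 and 146, 137 and 149 CPM in those labelled *Sirt6* KO. Its groups overlapped, and its log2 fold change was 0.20 ± 0.14 (adjusted p = 0.348). *Eif3a*, *Eif3e*, *Eif3g* and *Eif3m* also overlapped in CPM, with adjusted p between 0.303 and 0.721. In FPKM *Eif3a*, *Eif3e* and *Eif3m* were lower without overlap, whereas *Eif3g* overlapped, and so did *Eif3c*.

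The near-identical pair *Eif3j1* and *Eif3j2*, whose product is the loosely bound subunit at the decoding site, gave the widest values. Their values in each library are given because this spread was seen. *Eif3j1* stood at 6.78, 5.85 and 55.3 CPM in WT libraries 1 to 3 and 14.5, 27.2 and 11.1 CPM in those labelled *Sirt6* KO, so that WT library 3 lay above every other library. *Eif3j2* ran the other way within WT, at 128, 101 and 76.3 CPM in WT libraries 1 to 3 and 48.1, 36.7 and 80.9 CPM in those labelled *Sirt6* KO. How the counting divided reads between the copies was not tested, so neither value is read by itself (adjusted p = 0.784 and 0.0913). *Eif3j1* also overlaps the end of *Spg11* on the other strand by 3079 bases. Summed over both copies, a step added after the values were seen, the level was 135, 107 and 132 CPM in WT, and it was 62.6, 63.9 and 92.1 CPM in the second group. The sum was lower without overlap, with a log2 fold change of -0.77 ± 0.18 (edgeR, adjusted p = 0.0324), the opposite direction to the called eIF3 genes.

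**Figure D3:**
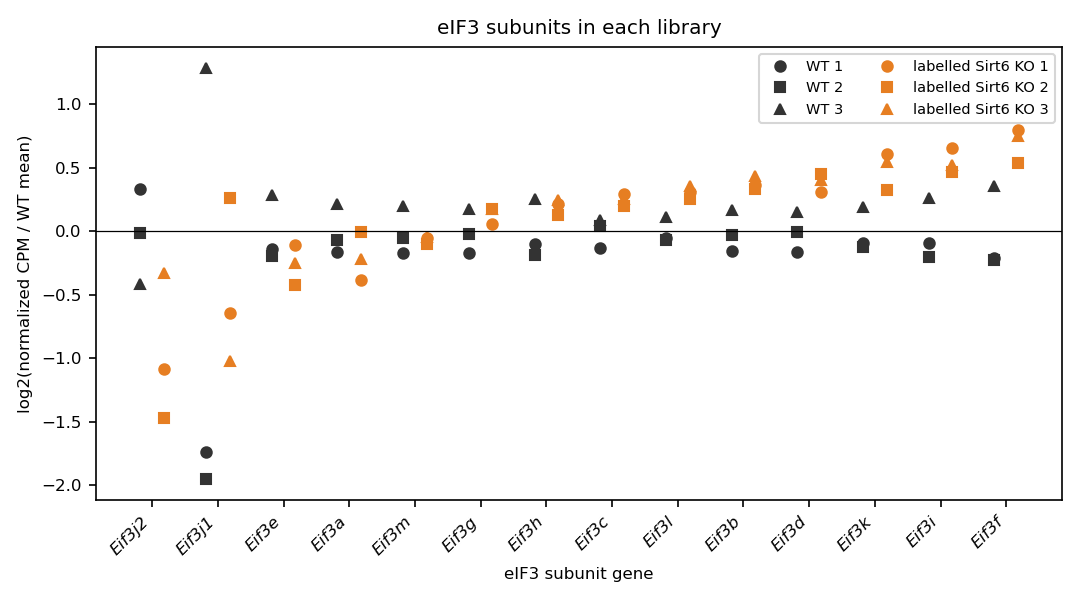
Level of each eIF3 subunit gene in each library, as log2 of normalized CPM over the WT mean of that gene, ordered by the mean difference; black marks are WT libraries and orange marks those labelled *Sirt6* KO. *Eif3f*, *Eif3i* and *Eif3k* stand at the right with all orange marks above the black ones, and *Eif3j1* spreads most, with WT library 3 far above the other WT libraries.

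Among the eIF4G genes and those of the helicase and its cofactors, 1 was called in each direction. None of the eIF4F subunit genes *Eif4e*, *Eif4g1*, *Eif4g3*, *Eif4a1* and *Eif4a2* was called. *Eif4g2* (NCBI gene 13690, chr7:111067985-111083030, minus strand), which encodes an eIF4G relative that cannot bind eIF4E and serves initiation without the cap-binding protein, stood at 994, 1068 and 1081 CPM in WT libraries 1 to 3 and 717, 712 and 734 CPM in those labelled *Sirt6* KO. It had the most counts of all 50 genes, its values differed little within a group, 1048 ± 46.9 against 721 ± 11.7 CPM (SD, n = 3), and it fell, with a log2 fold change of -0.54 ± 0.12 (adjusted p = 0.0307). *Eif4g1*, the main cap-dependent scaffold, stood at 709.8, 743 and 896 CPM in WT libraries 1 to 3 and 762, 729 and 743 CPM in those labelled *Sirt6* KO. Its groups overlapped in CPM (log2 fold change -0.07 ± 0.14, adjusted p = 0.743), as did those of *Eif4g3*. In FPKM *Eif4g1* was lower without overlap, at 133, 129 and 137 in WT and 119, 111 and 111 in the other group. *Eif4g3* overlapped in FPKM too.

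Among the helicases *Eif4a3* (NCBI gene 192170, chr11:119288363-119300043, minus strand), whose product is the eIF4A relative of the exon junction complex and not a member of eIF4F, stood at 20.3, 23.8 and 23.8 CPM in WT libraries 1 to 3 and 34.4, 36.5 and 35.5 CPM in those labelled *Sirt6* KO. It rose by 0.65 ± 0.11 on the log2 scale (adjusted p = 0.0155), the smallest p of the 50 genes. *Eif4a2*, the eIF4A form most abundant in muscle by FPKM here, stood at 540.0, 559 and 616 CPM in WT libraries 1 to 3 and 457, 449.6 and 443 CPM in those labelled *Sirt6* KO, lower without overlap but not called (-0.35 ± 0.12, adjusted p = 0.0873). *Eif4a1*, *Eif4b* and *Eif4h*, the last 2 encoding cofactors of the helicase, overlapped between groups. The ratio of *Eif4a1* to *Eif4a2* in FPKM was 0.232, 0.229 and 0.177 for WT, next to 0.233, 0.273 and 0.238 for the other group. The groups were apart by 0.23 on the log2 scale, at the smallest p that an exact two-sided permutation test of 3 against 3 can give (p = 0.1; 0.33 after Benjamini-Hochberg adjustment over 10 ratios).

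The 250 bases upstream of *Eif4a3* are given because they hold a pair of CRE cores, in capitals below, which began at positions -68 and -42 from the start; the window is chr11:119300044-119300293 on the minus strand (RefSeq, GRCm38.p6).
Eif4a3: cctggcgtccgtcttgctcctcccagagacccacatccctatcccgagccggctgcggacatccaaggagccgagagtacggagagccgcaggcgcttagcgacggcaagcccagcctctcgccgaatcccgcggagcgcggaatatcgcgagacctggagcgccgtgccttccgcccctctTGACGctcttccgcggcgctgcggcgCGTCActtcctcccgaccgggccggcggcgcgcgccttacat

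None of the 4 genes of the eIF4E group was called. *Eif4e2*, a cap-binding relative that represses some mRNAs, had the highest FPKM of the group and stood at 59.2, 61.3 and 77.1 CPM in WT libraries 1 to 3 and 76.6, 62.3 and 67.7 CPM in those labelled *Sirt6* KO (0.07 ± 0.14, adjusted p = 0.768). *Eif4e* itself lay lower without overlap at 107 ± 6.76 against 93.2 ± 6.29 CPM, a difference of -0.19 ± 0.11 that did not pass (adjusted p = 0.238). *Eif4e3*, which encodes a further cap-binding relative, did so too, at 45.6 ± 7.19 against 33.9 ± 1.00 CPM and -0.43 ± 0.13 (adjusted p = 0.0625). *Eif4enif1*, encoding the shuttling protein that binds eIF4E, overlapped between groups and is overlapped by *Drg1* on the other strand over 42197 bases.

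Of the 3 genes for the eIF4E-binding inhibitors none was called and none was without overlap. *Eif4ebp2* stood at 53.7, 51.4 and 89.4 CPM in WT libraries 1 to 3 and 112, 85.6 and 99.8 CPM in those labelled *Sirt6* KO (0.61 ± 0.23, adjusted p = 0.105). *Eif4ebp1*, given in each library because its spread was seen, had the opposite sign, at 29.1, 56.6 and 65.7 CPM in WT libraries 1 to 3 and 30.8, 40.6 and 38.7 CPM in those labelled *Sirt6* KO (-0.46 ± 0.28, adjusted p = 0.281). The ratio of *Eif4ebp1* to *Eif4ebp2* in FPKM was 0.987, 2.00 and 1.34 in WT against 0.503, 0.864 and 0.706 in the libraries labelled *Sirt6* KO. These groups did not overlap, with a difference of -1.04 on the log2 scale, again at the smallest exact p (0.1; 0.33 adjusted over 10 ratios). The other 8 ratios, among them *Eif4g1* to *Eif4g3*, *Eif5a* to *Eif5a2* and *Eif4ebp1* to *Eif4e*, overlapped between groups, with exact permutation p between 0.2 and 0.9.

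Of the genes for eIF2, the carrier of the initiator tRNA, and its relatives 1 fell and none rose. *Eif2s1* (NCBI gene 13665, chr12:78862072-78887010, plus strand), encoding the alpha subunit on which the stress kinases act, stood at 50.4, 55.7 and 55.0 CPM in WT libraries 1 to 3 and 40.3, 39.3 and 37.5 CPM in those labelled *Sirt6* KO. The groups were apart, 53.7 ± 2.88 against 39.0 ± 1.41 CPM (SD, n = 3), and it fell, with a log2 fold change of -0.46 ± 0.095 (adjusted p = 0.0234). Its upstream 250 bases at chr12:78861822-78862071 on the plus strand are set beside those of the genes that rose, and hold neither the E-box nor the CRE core.
Eif2s1: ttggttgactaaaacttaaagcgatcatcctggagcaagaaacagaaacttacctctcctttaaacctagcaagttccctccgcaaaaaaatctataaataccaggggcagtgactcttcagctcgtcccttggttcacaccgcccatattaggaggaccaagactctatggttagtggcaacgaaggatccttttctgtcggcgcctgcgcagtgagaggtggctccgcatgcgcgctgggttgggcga
*Eif2s2*, encoding the beta subunit and the highest of the group by FPKM, stood at 209.8, 217 and 306 CPM in WT libraries 1 to 3 and 187, 172 and 189 CPM in those labelled *Sirt6* KO, lower without overlap but not called (-0.42 ± 0.17, adjusted p = 0.122). Its span overlaps that of the gene *a* on the other strand. The gamma subunit has an X-linked and a Y-linked copy: *Eif2s3x* overlapped between groups, and *Eif2s3y* was lower without overlap at 68.3 ± 6.38 against 54.9 ± 3.52 CPM (-0.31 ± 0.11, adjusted p = 0.0942). *Eif2a*, whose product is an alternative carrier of initiator tRNA and not the alpha subunit, was lower without overlap as well (-0.35 ± 0.13, adjusted p = 0.104), whereas *Eif2d* overlapped (adjusted p = 0.998). The groups of 4 of the 6 genes were lower without overlap (19.6% of all genes were), and the median log2 fold change was -0.33. With the GC correction described below, *Eif2s1* was at -0.16, *Eif2s2* at -0.063, *Eif2a* at -0.023 and *Eif2s3y* at 0.099 (log2 fold change).

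No gene of eIF2B, the factor that reloads eIF2 with GTP, was called among 5. *Eif2b5*, the catalytic subunit and the highest of the group by FPKM, stood at 65.7, 64.1 and 78.4 CPM in WT libraries 1 to 3 and 90.2, 86.9 and 86.0 CPM in those labelled *Sirt6* KO. It was higher without overlap, by 0.34 ± 0.11 (adjusted p = 0.0810). *Eif2b2*, a regulatory subunit, was also higher without overlap, at 30.9 ± 8.16 against 48.1 ± 2.12 CPM and 0.64 ± 0.18 (adjusted p = 0.0513). *Eif2b1*, *Eif2b3* and *Eif2b4* overlapped, with adjusted p between 0.582 and 0.964.

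In the group of eIF1 and eIF1A, which keep the scanning ribosome open, none of 5 genes was called. *Eif1* stood at 631, 642 and 842 CPM in WT libraries 1 to 3 and 559, 541 and 551 CPM in those labelled *Sirt6* KO, lower without overlap (-0.36 ± 0.15, adjusted p = 0.142). *Eif1b*, its paralog, was lower without overlap, at a log2 fold change of -0.35 ± 0.11 (adjusted p = 0.0676). *Eif1ad*, for an eIF1A-domain protein, was higher without overlap by 0.29 ± 0.11 (adjusted p = 0.0980). *Eif1a* and *Eif1ax* overlapped.

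The factors of subunit joining and later steps gave no call among 5. *Eif5a*, for the hypusine-bearing factor that also serves elongation, had the highest FPKM of the group and stood at 243, 259 and 329 CPM in WT libraries 1 to 3 and 308, 313 and 298 CPM in those labelled *Sirt6* KO (0.14 ± 0.14, adjusted p = 0.510). *Eif5b*, the GTPase that joins the subunits, was lower without overlap at 190.1 ± 20.1 against 142 ± 7.26 CPM (-0.43 ± 0.12, adjusted p = 0.0513). *Eif6*, whose product keeps the large subunit from joining early, was higher without overlap at 24.0 ± 5.58 against 35.1 ± 1.57 CPM (0.55 ± 0.17, adjusted p = 0.0644). *Eif5a2*, near the bottom of the range at 1.87 ± 0.531 against 1.01 ± 0.302 CPM, was lower without overlap (-0.89 ± 0.34, adjusted p = 0.108). *Eif5*, for the GTPase-activating protein of eIF2, overlapped.

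The differences went with base composition. Across the 50 genes the GC content of the longest transcript, which ran from 36.2 to 57.9%, correlated with the log2 fold change with Spearman's rho of 0.65, against 0.33 over the 13715 genes tested with a known GC content; the genes share the same libraries and are not independent. The 12 genes lower without overlap had a median GC content of 40.7% and the 12 higher ones 51.9%. A correction then took the GC trend out of each library, whatever its source, so a weaker correlation follows from the step itself. After it the correlation was 0.11 and 2 of the 50 genes were called, against 951 (6.93%) of all genes. *Eif4a3* was 1 of them, at 0.49 (adjusted p = 0.0438), and *Eif1b* the other, at -0.50 (adjusted p = 0.0410). *Eif3f* and *Eif3i* missed the threshold at 0.66 (adjusted p = 0.0670) and 0.60 (adjusted p = 0.0529). *Eif3k* was at 0.38 (adjusted p = 0.112). The genes that had fallen were nearer to 0: *Eif4g2* was at -0.32 (adjusted p = 0.140) and *Eif2s1* at -0.16 (adjusted p = 0.306). The correction also takes out differences between the groups that go with GC content. The part of GC content in these differences was not tested.

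**Figure D4:**
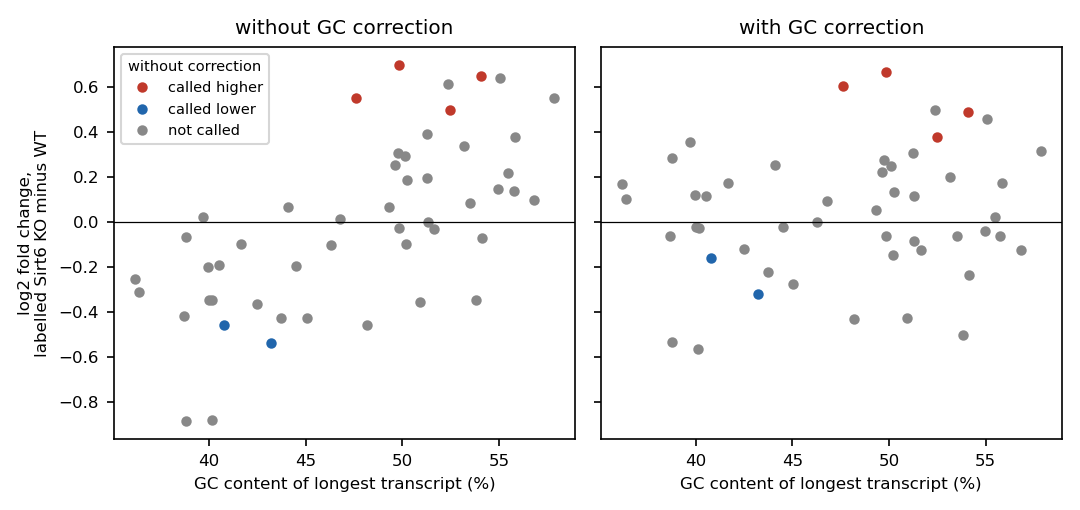
Log2 fold change of the 50 initiation factor genes, in the libraries labelled *Sirt6* KO relative to WT, against the GC content of the longest transcript in percent, before (left) and after (right) a correction for GC content in each library; colors mark the calls made without the correction. Spearman's rho is 0.65 before the correction and 0.11 after it, and the correction itself removes such a trend.

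The calls also depended on which libraries were in the fit. In CPM, WT library 3 was the highest of the WT libraries in 42 of the 50 genes, and in 44.4% of all genes tested. That count depended on the scaling: its TMM factor was 0.909, against 1.11 and 1.05 for WT libraries 1 and 2. In FPKM it stayed the highest for *Eif1*, *Eif3f* and *Eif3i*, among others, but not for *Eif4a2*, *Eif4g2* or *Eif3k*, among others. Without WT library 3, 24 of the 50 genes were called, 17 higher and 7 lower, with all 6 genes among them, and 4582 of all genes (32.5%; 16.7% higher and 15.7% lower). Without WT library 1 or the second library labelled *Sirt6* KO only *Eif4a3* was called, and without WT library 2 or either other library labelled *Sirt6* KO none of the 50 was, in fits that called 440 (3.15%), 873 (6.21%), 249 (1.78%), 8 (0.0568%) and 13 (0.0921%) of all genes. In the edgeR fits without a call among the 50, 17, 14 and 14 of them had an unadjusted p under 0.05. The direction of the 6 genes was the same in each of these fits, and the log2 fold change ran from 0.60 to 0.92 for *Eif3f*, from 0.46 to 0.70 for *Eif3i*, from 0.44 to 0.61 for *Eif3k*, from 0.58 to 0.69 for *Eif4a3*, from -0.56 to -0.51 for *Eif4g2* and from -0.49 to -0.43 for *Eif2s1*. The high fast muscle sum of WT library 3 and its low slow muscle, erythroid, endothelial, fibroblast and adipocyte sums stand beside these values, and their part in them was not tested.

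**Figure D5:**
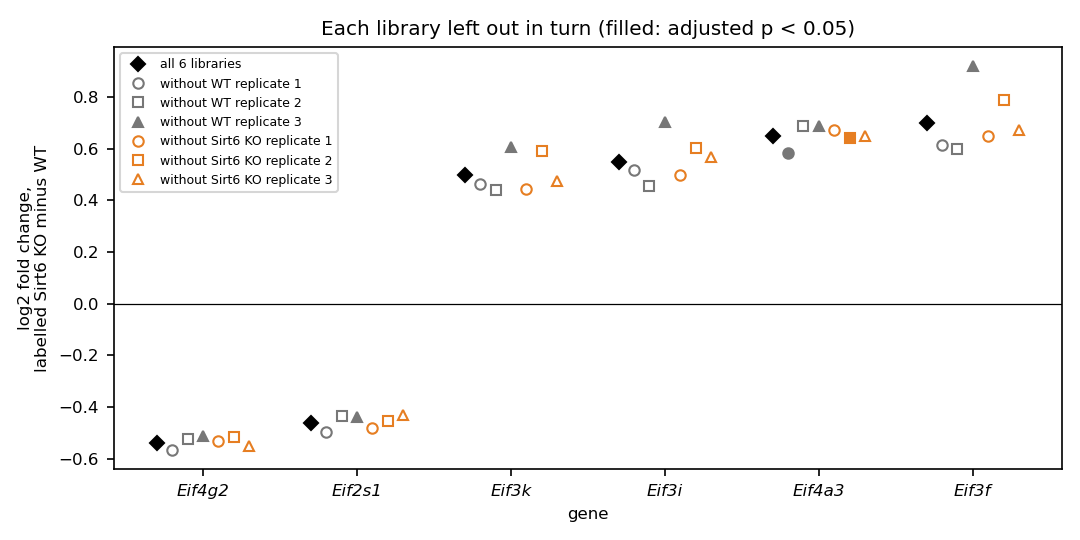
Log2 fold change of the 6 called genes with all 6 libraries (diamonds) and with each library left out in turn; filled marks passed an adjusted p of 0.05 in that fit. The signs hold in every fit, and for the 5 genes other than *Eif4a3* a mark with a library left out is filled only where WT library 3 is missing.

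Sequence shared by the genes was looked at in the 250 bases upstream of the RefSeq start, which 39 of the 50 genes had, in 51 windows; *Eif3i* and *Eif4g2* were not among them. The 4 motifs were searched on both strands and were chosen after the values and a first search were seen. The E-box CACGTG lay in 9 of the 39 genes, against 6.86% of 27025 genes. The CRE core TGACG lay in 21 of 39, against 19.8%, while the full CRE TGACGTCA, which contains that core, lay in 0 of 39, against 1.77%. The ETS motif CCGGAAG lay in 12 of 39, against 7.83%. Of the called genes, *Eif3f* and *Eif3k* held the E-box, *Eif3k* and *Eif4a3* the CRE core, and none the ETS motif. The 27025 genes include genes that were not among the 13801 tested here. The shares were not set against genes of like level or base composition. A match describes the letters of the window and shows no binding.

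Related translation genes were read from lists of 52 genes: regulators and helpers of initiation, mTORC1 genes, and elongation and termination genes. All passed the filter, and 4 rose (7.69%, against 7.85% of all genes) and 12 fell (23.1%, against 8.39%), with a median log2 fold change of -0.059. The lists were chosen with earlier results of these data known, so these shares describe the lists alone. Of 7 genes for the eIF2 alpha kinases and their opposing phosphatase, 3 fell, all on the phosphatase side. *Ppp1r15a*, the stress-induced phosphatase subunit, stood at 82.6, 125 and 109 CPM in WT libraries 1 to 3 and 31.5, 45.8 and 44.9 CPM in those labelled *Sirt6* KO (-1.38 ± 0.20, adjusted p = 0.0132). *Ppp1r15b*, its constitutive counterpart, changed by -0.72 ± 0.11 (adjusted p = 0.0144), and *Ppp1cb*, a catalytic subunit with many other partners, by -0.75 ± 0.12 (adjusted p = 0.0150). None of the kinases was called.

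Of 13 genes of mTORC1 and its regulators, 3 rose and 2 fell. *Ddit4*, encoding the mTORC1 inhibitor REDD1, stood at 212, 340.2 and 295 CPM in WT libraries 1 to 3 and 39.5, 116 and 20.3 CPM in those labelled *Sirt6* KO (-2.27 ± 0.59, adjusted p = 0.0420). With single libraries left out its log2 fold change ran from -3.23, without the second library labelled *Sirt6* KO, to -1.86, without the third, and it was called in 2 of these 6 fits. *Ddit4l*, encoding its relative REDD2, went the other way at 215, 116 and 192 CPM in WT libraries 1 to 3 and 607, 359 and 446 CPM in those labelled *Sirt6* KO (1.43 ± 0.28, adjusted p = 0.0204). *Rheb*, encoding the GTPase that activates mTORC1, fell (-0.85 ± 0.12, adjusted p = 0.0131). *Mlst8*, a subunit of the complex, rose by 0.63 ± 0.13 (adjusted p = 0.0243), and *Rps6kb2*, an S6 kinase, by 0.41 ± 0.11 (adjusted p = 0.0495).

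Of 10 genes for kinases and regulators of eIF4F 2 fell: *Mknk2*, for a kinase of eIF4E (-0.81 ± 0.19, adjusted p = 0.0303), and *Paip1*, for a partner of the poly(A)-binding protein (-0.78 ± 0.11, adjusted p = 0.0132). Of 11 other helpers of initiation 1 rose and 4 fell. The gene that rose was *Dohh*, for the enzyme that completes hypusine on eIF5A (0.63 ± 0.11, adjusted p = 0.0164). Those that fell were the helicase gene *Ddx3x* (-0.70 ± 0.15, adjusted p = 0.0246), *Bzw1*, for an eIF5 mimic (-0.75 ± 0.092, adjusted p = 0.0128), *Mcts1*, for a reinitiation factor (-0.51 ± 0.13, adjusted p = 0.0381), and *Mtif2*, for the mitochondrial initiation factor (-0.48 ± 0.098, adjusted p = 0.0234). Of 3 termination genes *Etf1*, for the release factor that reads stop codons, fell (-0.47 ± 0.11, adjusted p = 0.0354). None of 8 elongation genes was called at the adjusted threshold. Of these, 5 were higher without overlap, where 20.3% of all genes were: *Eef1a1*, *Eef1a2*, *Eef1d*, *Eef2* and *Eef2k*. Their log2 fold changes ran from 0.20 to 0.61 and their adjusted p from 0.0536 to 0.220. With the GC correction 7 of the 52 genes were called (13.5%, against 6.93% of all genes), and without single libraries between 0 and 26.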

How the data were processed

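RNA of the gastrocnemius muscle was sequenced with paired-end reads from 3 animals labelled WT and 3 labelled *Sirt6* KO, with 1 library per animal, and groups and replicate numbers were taken from the sample labels. The submitters' processing notes name bcl2fastq 2.20.0, FastQC 0.11.7, HISAT2 2.1.0, Bowtie2 2.3.4.1, StringTie 2.1.3b and mm10, whereas STAR is the aligner of the reporting summary; the TruSeq kit in the methods is not that of the labels. The authors deposited read counts per gene, whole numbers that are not normalized. FPKM, deposited beside them, is scaled by the length of the gene and the depth of the library, and the deposited TPM was not used. The table holds 24532 genes, of which 7342 had no count.

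The main test was edgeR 4.0.16 (R 4.3.3): filterByExpr, TMM normalization (factors 0.909 to 1.11) and a quasi-likelihood fit on the group alone, with Benjamini-Hochberg adjustment over 13801 genes at 0.05. The biological coefficient of variation was 24.1%. The script was tested on simulated counts. FPKM served for levels between genes and for 10 ratios of paralogs, tested by exact two-sided permutation. Alternatives were DESeq2 1.42.0, its size factors, other filters on low counts, limma 3.58.1 on log2(FPKM + 1) and on log2(FPKM + 0.1) after quantile normalization, a block on the replicate number, a GC correction (lowess, span 0.3, GENCODE M21 longest transcripts, covering 99.4% of genes tested) and each library left out. Coordinates and upstream sequence are RefSeq on GRCm38.p6. Values in each library are given for called genes and for the gene of highest FPKM in each role group, other members by range or mean, and of the related lists the called genes are named. The genes, lists and tests were chosen with earlier results of these data known.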

Additional observations from a re-analysis of the deposited data

How the results depend on the processing

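The 4 higher and 2 lower calls among the 50 initiation factor genes, out of 2242 calls in all, became 11 and 7 with DESeq2's Wald test (3531 in all), 5 and 3 with DESeq2's size factors (2276), 5 and 3 with at least 10 counts in every library (2344), 11 and 6 with limma on log2(FPKM + 1) (2619) and on log2(FPKM + 0.1) (2629), all of which held the 6 genes. They became 1 and 2 with no filter on low counts (1726; 3 of the 6 genes held), 1 and 1 with the GC correction (951; 1 held) and 0 and 0 with the replicate block and the GC correction together (575 by edgeR; 11 of the 50 at an unadjusted p under 0.05). With the copies of *Eif3j* summed, added after the values were seen, 3 were lower. Leaving out each library in turn gave 0 to 17 higher, 0 to 7 lower, 8 to 4582 calls over all genes and 0 to 26 among the 52 related genes. The 16 calls of the related genes became 24 with DESeq2, 12 without the filter, 7 with the GC correction and 6 with the block added to it. The median log2 fold change of the 50 genes, -0.014, ran from -0.014 to 0.079 under these settings and from -0.0641 to 0.11 without single libraries.

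Libraries of equal number share only that number: the correlations of their deviations from the group means were -0.11, 0.26 and 0.16. The replicate block alone gave 4 higher and 1 lower call among the 50 genes (4 of the 6 held), 1922 in all and 14 among the related genes.

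Of the 53 log2 fold changes given above singly or as a range, for initiation factor genes, related genes and *Sirt6*, under 15 alternatives, 585 values kept their direction and side of the threshold, 69 kept the direction and newly passed it, 133 kept the direction and no longer passed it, and 8 changed sign. Those of the 53 that changed sign were *Eif2s3y* (0.099 with the GC correction, 0.10 with the block added), *Eif4e* (0.11 and 0.11), *Eif5a* (-0.041 and -0.028), *Eif4e2* (-0.015 to 0.20 without single libraries, below 0 without the first library labelled *Sirt6* KO) and *Eif4g1* (-0.13 to 0.038, above 0 without WT library 3). Over all 50 initiation factor genes, 11 changed sign with the GC correction, 12 with the block added to it, 12 without some library, and 19 in at least 1 alternative, of which 2 (*Eif2s3y* and *Eif4e*) had groups without overlap. No ratio moved by more than its spread. Depth was not low for any of the 50 genes: the least abundant, *Eif5a2*, had 460 counts.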
